A study of Mus musculus with 18 samples.

Results

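The genes described here are 56 genes of mitosis and the G2/M transition, chosen by symbol from the 55487 gene IDs of the count table and read across every group of a study of oxyhemoglobin in mouse microglial cells. They cover Cdk1 and its cyclins, the mitotic kinases, the spindle checkpoint, anaphase and mitotic exit, the kinetochore, the mitotic kinesins, spindle-associated proteins, cytokinesis and chromosome structure. Of the 56, 55 passed the filter on low counts and were tested among 15996 genes. The exception was Smc2, a condensin subunit, with 30 counts over the 18 libraries. All group means of 52 of the 56 genes were at or above the filter level of 2.02 CPM (counts-per-million of the scaled library).

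The study sequenced RNA from BV2 cells, an immortalised line of mouse microglia that divides in culture. Its 18 libraries form 6 groups of 3: cells labelled NC and cells labelled BAK1-KD, each as a control, after 12 h and after 24 h with oxyhemoglobin, the oxygen-carrying form of hemoglobin. All cells were grown in the same serum-containing medium and left to attach for 12 h before treatment. The treatment label gives a dose of 10 mM, and nothing in the sources used here allows that unit to be checked.

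The labels do not spell out NC or BAK1-KD, do not say how the lines were made or whether each is 1 clone, and give the controls no later harvest time. Time in culture and treatment therefore cannot be told apart. The line labelled BAK1-KD is called KD below. Bak1, the gene that the label names, encodes an activator of mitochondrial apoptosis. It held 25 counts over the 9 NC libraries (0 to 7 in each) and 39 over the 9 KD libraries (1 to 12 in each), so its own counts were not lower in KD and too few to check the label. Nothing says that the 3 libraries of a group came from separate cultures, and p-values then measure only the spread between these libraries.

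Library totals ran from 4361313 to 6008810 counts, and all pairs of libraries of 1 group differed beyond sampling noise, with 4.5 to 17.3 for chi-square over its degrees of freedom. All 10 microglial markers had counts, led by Spi1, Ptprc and Trem2, while Aif1 (43 counts in all), Tyrobp (187) and Cx3cr1 (191) were low. The defining genes of neurons (Rbfox3, Snap25, Syt1), astrocytes (Slc1a3, Aqp4, Aldh1l1) and oligodendrocytes (Mog, Olig2), and the globin genes of the marker list, were at 0. The mitochondrial share of counts was 1.06 to 2.37% in the 6 control libraries, 0.605 to 1.33% in the 6 at 12 h and 0.833 to 2.12% in the 6 at 24 h. The most abundant gene, CT010467.2, held 13.8 to 21.5%, 12.9 to 17.2% and 14.2 to 25.3%. Both shares moved with the 12 h results given below, and their part in those results was not tested.

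A cell enters mitosis when Cdk1, bound to a B-type cyclin, becomes active. Chromosomes then condense, attach through kinetochores to a spindle built by motors and crosslinkers, and wait for the checkpoint to release the anaphase-promoting complex, which ends mitosis by marking cyclin B and securin for destruction. Most of these genes are transcribed late in the cycle, when the factors B-Myb and FoxM1 act on the MuvB complex at their promoters, and are repressed in resting cells when MuvB joins the DREAM complex. MuvB binds the cell-cycle homology region (CHR), and CCAAT boxes are bound by NF-Y. The RNA of these genes is thus a common readout of cells in late S, G2 and M phase. In a bulk library, fewer cells in those phases and less of the RNA per cell cannot be told apart.

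The mitotic genes fell together at 12 h of oxyhemoglobin and rose again by 24 h, in both lines. Against control, the median log2 fold change at 24 h was 0.02 in NC and -0.29 in KD. In NC cells 44 of the 55 tested genes were lower at 12 h than in control and none was higher, against 5.55% of all tested genes called lower and 12.2% called in either direction. Every one of the 55 estimates was below 0, from a log2 fold change of -1.93 to -0.41, with a median of -0.98 where the median of all genes was -0.01. Estimates of 22 of the genes were at least 2-fold down. In KD cells 51 of the 55 were lower and none higher, against 8.06% called lower and 16% in either direction, with estimates from -2.66 to -0.21, a median of -1.60 and 49 at least 2-fold down. Between 12 h and 24 h, 31 rose and none fell in NC (1.63% of all genes rose and 2.76% changed), with a median of 1.00. In KD 46 rose and none fell (2.81% and 4.28%), with a median of 1.34. The 12 h libraries enter both steps of each line, so the fall and the rise are not independent measurements.

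The sum of the 56 genes showed the same course in raw counts. They held 0.43, 0.479 and 0.387% of all counts in the 3 NC control libraries, 0.197, 0.237 and 0.19% after 12 h and 0.384, 0.48 and 0.393% after 24 h. In KD the shares were 0.547, 0.622 and 0.509% in control, 0.187, 0.185 and 0.164% after 12 h and 0.448, 0.451 and 0.397% after 24 h. Every KD 24 h library thus stayed below every KD control. No 12 h library overlapped a control or 24 h library of its line. Abundant genes weigh most in these shares: Mki67 held 71034 counts over the 18 libraries, and Top2a, the next, 24650. Gene by gene, all 3 NC 12 h libraries lay below all 3 NC controls for 50 of the 55 genes (13% of all genes did so) and below all 3 at 24 h for 49 (9.05%). In KD these counts were 53 (15.7%) and 51 (10.5%).

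**Figure D1:**
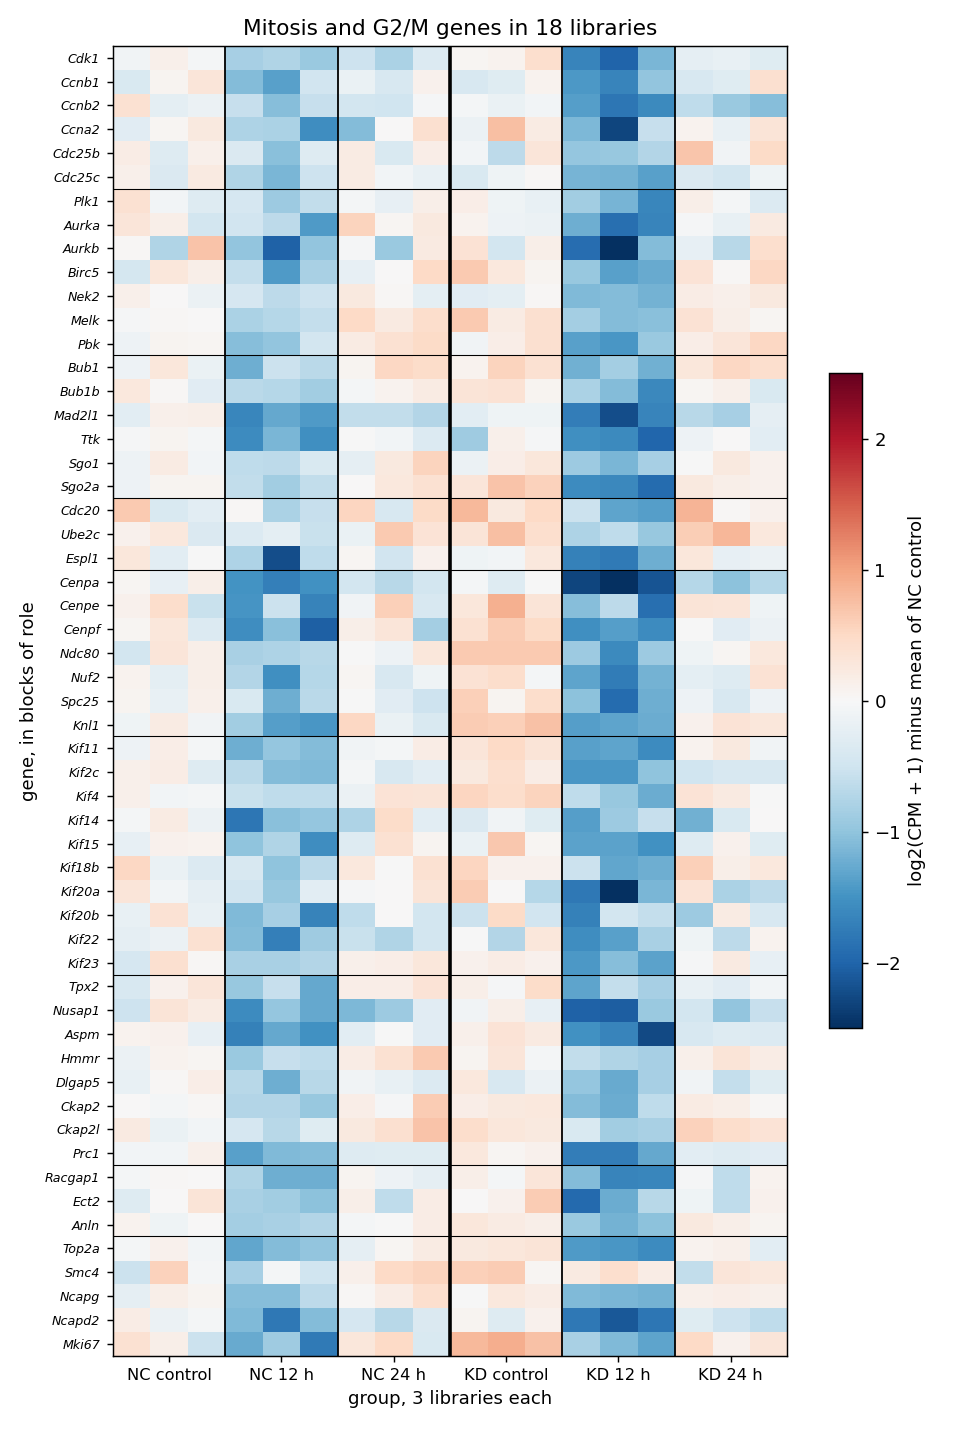
Level of each gene (rows, in blocks of role) in each of the 18 libraries (columns, by line and time), as log2(CPM + 1) minus the gene's mean in the NC controls. The columns of both 12 h groups are the low ones for nearly all genes, with the KD 12 h columns lowest.

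Of the 11 genes not called in NC at 12 h (Ccna2, Cdc25b, Aurka, Aurkb, Cdc20, Ube2c, Spc25, Kif20a, Ckap2l, Ect2 and Smc4), 9 were called in KD. The KD exceptions were Cdc25b, Kif14, Kif20b and Smc4. Both lines called 42 of the 55. The NC calls depended more on single libraries: 26 of the 44 at 12 h held in each of the 18 fits that left out 1 library, against 48 of the 51 in KD. With the library number as a block, 51 of the 55 were called lower in NC at 12 h (11% of all genes), among them Ube2c, Spc25, Cdc20, Aurkb, Aurka, Ect2 and Ckap2l of these 11. In KD the block added Kif20b (adjusted p = 0.03) and Cdc25b (adjusted p = 0.0295). On the log2(TPM + 1) scale with limma, which tested 47 of the genes, 22 were called lower at 12 h in NC and 8 and 28 higher from 12 h to 24 h in NC and KD, and all of these estimates kept their direction. On that scale the median of all genes itself shifted by 0.03, -0.13 and -0.18 in those comparisons.

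For the 12 h to 24 h step, 17 of the 31 NC calls and 37 of the 46 KD calls held in every fit without 1 library, and without NC 12 h library 3 the NC count was 20. With the library number as a block, which the pairing check allowed for this comparison, the NC count was 47 (5.39% of all genes rose).

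Promoter letters are shown for 7 genes that stand for the different roles and motif contents, because the group as a whole moved together. RefSeq start sites (GRCm38.p6) matched 48 of the 56 genes, with 51 promoters. The 250 bases before each start were searched on both strands for a CHR, spelled TTTGAA or TTCGAA, and for CCAAT. No CHR match overlapped a CCAAT match. A CHR match was found for 20 of the 48 genes and in 41.2% of their promoters, against 17.1% of all 32851 promoters in the table. CCAAT was found for 36 genes and in 74.5% of their promoters, against 33.8% of all. Both were found for 18 genes and in 37.3% of promoters, against 6.02%. The start sites are limited: only 33 of the 51 promoters had the bases just after the start in a GENCODE M21 transcript of the gene. Each line below gives the 120 bases immediately before the start, 5' to 3' on the gene's strand, with whole matches in capitals (TTCAAA and ATTGG are the reverse-strand forms).

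Top2a: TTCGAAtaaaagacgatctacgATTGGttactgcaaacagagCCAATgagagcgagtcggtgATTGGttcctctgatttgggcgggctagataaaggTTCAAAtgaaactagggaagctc
Kif11: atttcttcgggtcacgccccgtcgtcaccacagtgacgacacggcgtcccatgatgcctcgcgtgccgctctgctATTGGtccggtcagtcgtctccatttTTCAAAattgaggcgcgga
Ckap2l: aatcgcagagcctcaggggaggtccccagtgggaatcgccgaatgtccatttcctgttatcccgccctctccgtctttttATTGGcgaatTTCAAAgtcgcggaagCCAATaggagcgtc
Mki67: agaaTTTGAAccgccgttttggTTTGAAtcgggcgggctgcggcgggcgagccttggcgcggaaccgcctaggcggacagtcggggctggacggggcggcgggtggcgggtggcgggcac
Ccnb2: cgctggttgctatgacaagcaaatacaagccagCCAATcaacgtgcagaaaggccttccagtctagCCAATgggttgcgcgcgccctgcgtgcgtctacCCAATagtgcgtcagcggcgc
Hmmr: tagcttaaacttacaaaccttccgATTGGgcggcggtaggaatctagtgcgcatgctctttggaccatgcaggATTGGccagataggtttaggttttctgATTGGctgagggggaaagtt
Anln: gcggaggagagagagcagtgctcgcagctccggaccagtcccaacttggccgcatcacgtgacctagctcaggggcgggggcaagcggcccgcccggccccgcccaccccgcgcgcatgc

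In the 120 bases shown, Top2a, Kif11 and Ckap2l hold both motifs, Mki67 holds CHR matches only, Ccnb2 and Hmmr hold CCAAT matches only and Anln holds neither. Over the 250 bases searched, Mki67 also has 3 CCAAT matches and Ccnb2 1 CHR match, so that both count among the 18 genes with both motifs. The windows of Top2a, Mki67, Kif11, Ckap2l, Ccnb2, Hmmr and Anln contain no annotated exon base. They are at Top2a chr11:99024190-99024309, Kif11 chr19:37376262-37376381, Ckap2l chr2:129297213-129297332, Mki67 chr7:135716380-135716499, Ccnb2 chr9:70421555-70421674, Hmmr chr11:40733438-40733557 and Anln chr9:22389207-22389326. Genes with and without a match both fell. At 12 h in NC, 15 of the 19 tested genes with a CHR match were called lower, with a median log2 fold change of -1.10, and 25 of the 28 without one, with a median of -0.93. In KD the medians were -1.66 and -1.63. For CCAAT the NC medians were -0.94 in 35 genes with a match and -1.04 in 12 without, and in KD -1.58 and -1.68. A match is a description of letters, and no match says only that they are not in the window.

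Cdk1 and the B-type cyclins, the engine of mitotic entry, fell in both lines. Cdk1 (ENSMUSG00000019942) lies on chromosome 10, 69335146 to 69352938, minus strand (GRCm38, GENCODE M21). Cdk1 stood at 28.2, 32.7 and 28.8 CPM in the 3 NC control libraries, then at 16.4, 17.2 and 15.3 after 12 h and 20.5, 16.8 and 23.2 after 24 h. In KD it stood at 31, 31.9 and 40.4 in control, then at 8.86, 6.65 and 13 after 12 h and 25.2, 26.2 and 24.1 after 24 h. All 12 h libraries were below the controls of their line, but the NC 24 h libraries overlapped those at 12 h. The 12 h change of Cdk1 was -0.87 ± 0.21 (log2 fold change ± SE, adjusted p = 0.00654) in NC and -1.86 ± 0.22 (adjusted p = 1.87e-06) in KD, and from 12 h to 24 h it rose in KD by 1.41 ± 0.22 (adjusted p = 0.000282) while the NC estimate was 0.30 ± 0.21 (adjusted p = 0.601).

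Cyclin B2 was the more abundant of the pair of B-type cyclins per length, with a mean over all libraries of 133.8 TPM for Ccnb2 against 7.83 for Ccnb1. The size of that gap rests on the lengths the authors used: per kilobase of merged exon the means were 74.5 CPM for Ccnb2 and 10.9 for Ccnb1. The NC libraries of Ccnb2 gave 209, 137 and 146 CPM in control, 108, 76.9 and 108 after 12 h and 118, 113 and 157 after 24 h. Those of KD gave 156, 144 and 154 CPM in control, 61.8, 45.5 and 52.8 after 12 h and 104, 84.7 and 76.2 after 24 h. In NC the 12 h libraries were below both other times, and in KD the 24 h libraries sat between the 12 h and control levels without overlap. Ccnb2 changed at 12 h by -0.75 ± 0.19 in NC (adjusted p = 0.0105) and -1.51 ± 0.20 in KD (adjusted p = 6.85e-06). It stayed below control at 24 h in KD, with -0.78 ± 0.19 (adjusted p = 0.0101).

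Cyclin B1, the main partner of Cdk1 at mitotic entry, has 3 near-identical pseudogene copies in the annotation (Ccnb1-ps, Gm12856 and Gm8416), so its counts are uncertain. For Ccnb1 the 3 NC libraries held 45.3, 62.2 and 73.5 CPM in control, 27.2, 22.5 and 42.4 after 12 h and 52.9, 44.4 and 64.1 after 24 h. The KD libraries held 44.8, 48 and 63 CPM in control, 21.2, 18.1 and 29.2 after 12 h and 44.3, 47.5 and 78.1 after 24 h. The 12 h libraries were the lowest of each line without overlap. Ccnb1 changed at 12 h by -0.98 ± 0.26 in NC (adjusted p = 0.0148) and -1.19 ± 0.27 in KD (adjusted p = 0.00284). Of the 6 genes of this role, 4 were called lower in NC at 12 h and 5 in KD; from 12 h to 24 h 0 rose in NC and 5 in KD. The NC 12 h call of Ccnb2 was lost without NC control library 1 (adjusted p = 0.0572) and that of Ccnb1 without NC control library 3, NC 12 h library 1 or NC 12 h library 2 (adjusted p up to 0.0759). The KD rise of Ccnb2 was lost in 4 fits, without KD 12 h library 2 or 3 or KD 24 h library 1 or 2 (adjusted p up to 0.183).

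The mitotic kinases, grouped with Birc5, which is not a kinase, fell with them. Of these 7 genes, 5 were called lower in NC and 7 in KD, and 5 and 6 rose from 12 h to 24 h. Plk1, which acts in mitotic entry, spindle assembly and cytokinesis, showed no overlap between its 12 h and control libraries. CPM of Plk1 were 142, 105 and 87.8 in NC control, 81.7, 57.7 and 71 in NC at 12 h and 106, 94.9 and 121 in NC at 24 h. In the KD groups they were 122, 102 and 96.1 in control, 59.6, 48.2 and 34.5 after 12 h and 122, 106 and 85.5 after 24 h. The 24 h libraries were back in the range of the controls or close to it. Plk1 changed at 12 h by -0.67 ± 0.21 in NC (adjusted p = 0.0368) and -1.17 ± 0.21 in KD (adjusted p = 0.000359), and rose from 12 h to 24 h in KD by 1.14 ± 0.21 (adjusted p = 0.00176).

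Nek2, a centrosome kinase, moved least among the kinases in NC. Levels of Nek2 in NC were 126, 117 and 105 CPM in control, 86.2, 73.5 and 80.7 after 12 h and 137, 119 and 98 after 24 h. The KD levels were 95, 97.6 and 117 CPM in control, 53.4, 54.2 and 50.2 after 12 h and 132, 127 and 137 after 24 h. The KD 24 h libraries were all above the KD controls, and the 12 h libraries of the lines did not overlap. Nek2 changed at 12 h by -0.53 ± 0.15 in NC (adjusted p = 0.0212) and -0.97 ± 0.15 in KD (adjusted p = 7.05e-05), and rose by 24 h by 0.56 ± 0.15 (adjusted p = 0.0481) and 1.33 ± 0.15 (adjusted p = 9.23e-06).

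Pbk, a mitotic kinase of the MAPKK family, has an annotated copy by the same search (Gm12387), which makes its counts uncertain. Pbk stood at 54.5, 62.2 and 61.7 CPM in the 3 NC control libraries, then at 27.9, 29.6 and 43 after 12 h and 68.4, 77.6 and 83.2 after 24 h. In KD it stood at 56.1, 66.6 and 78.4 in control, then at 22.7, 21.1 and 30.7 after 12 h and 66.7, 73 and 85.5 after 24 h. In NC its 24 h libraries were all above the controls. Pbk changed at 12 h by -0.83 ± 0.19 in NC (adjusted p = 0.00526) and -1.44 ± 0.20 in KD (adjusted p = 1.26e-05), and rose by 1.19 ± 0.19 (adjusted p = 0.000837) and 1.60 ± 0.20 (adjusted p = 1.99e-05). Among these kinases the NC 12 h calls of Plk1 and Nek2 were each lost without NC control library 1, NC 12 h library 2 or NC 12 h library 3 (adjusted p up to 0.159 and 0.0656), and the NC rise of Nek2 was lost in 16 of the 18 such omissions, all but those without NC control library 1 or NC 24 h library 3 (adjusted p up to 0.191).

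**Figure D2:**
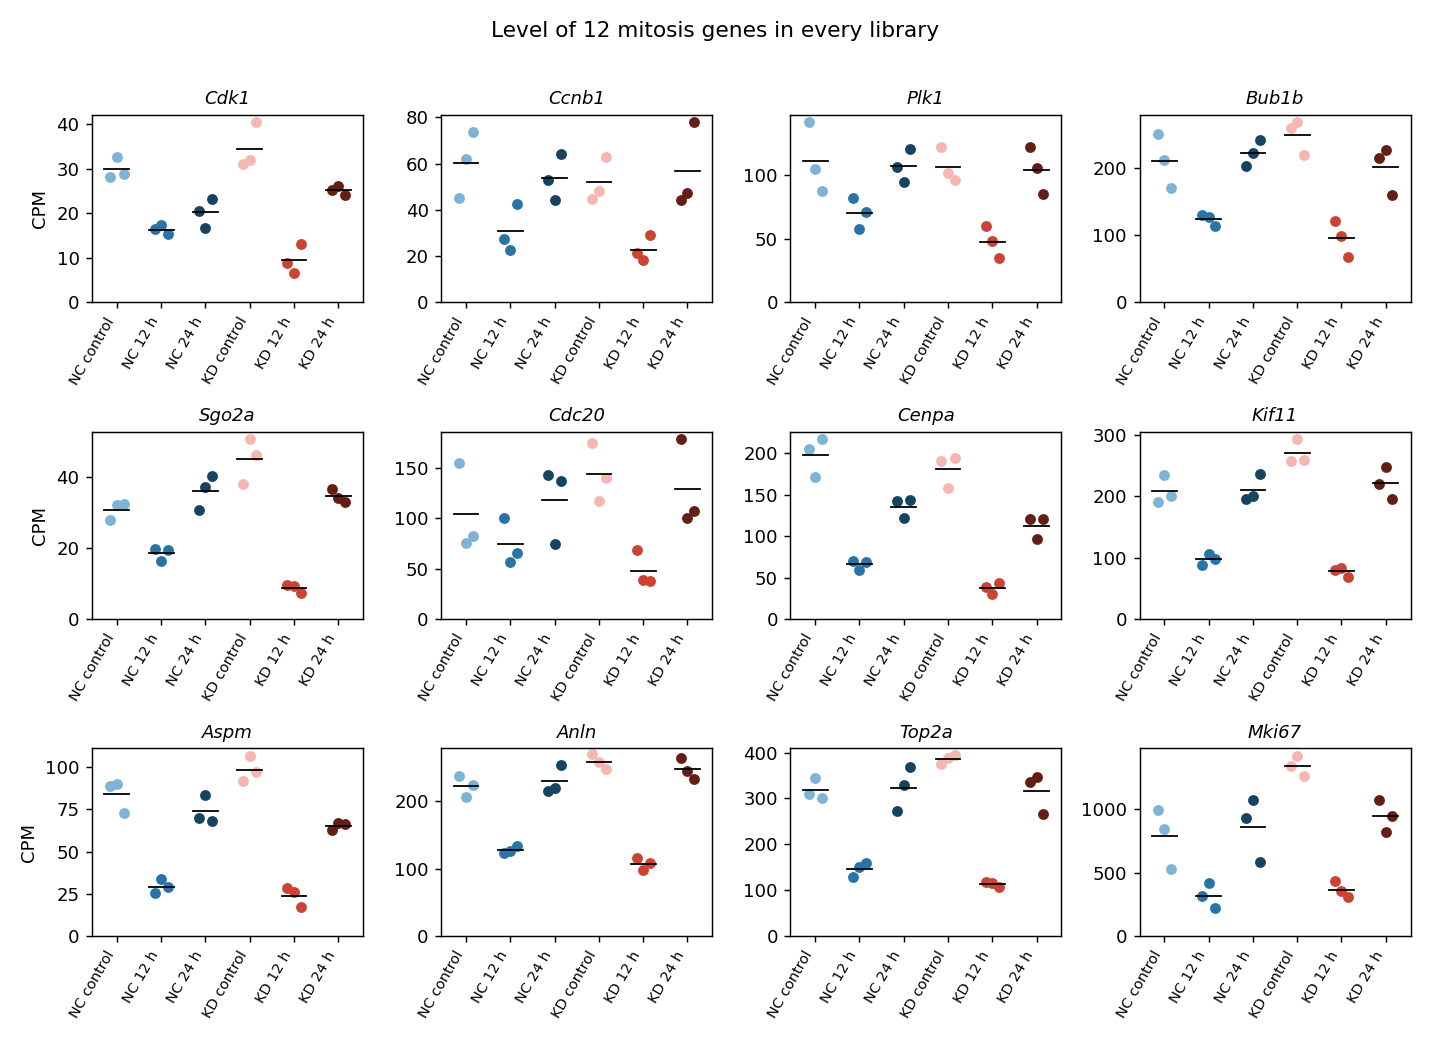
CPM of 12 of the genes in each library, with a point for each library and a line for the group mean, the 3 NC groups followed by the 3 KD groups and the y axis starting at 0. The mean at 12 h is the lowest of each line in every panel, and the KD mean at 12 h is below that of NC in all panels but Mki67.

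All 6 genes of the spindle checkpoint and of cohesion protection fell in both lines at 12 h and rose by 24 h in both. Bub1b encodes BubR1, a subunit of the mitotic checkpoint complex. The NC libraries of Bub1b gave 249.6, 212 and 171 CPM in control, 129, 127 and 113 after 12 h and 202, 222 and 241 after 24 h. Those of KD gave 259.8, 269 and 219 CPM in control, 120.1, 98 and 67.9 after 12 h and 215, 227 and 159.6 after 24 h. The 12 h libraries lay below every control and 24 h library of their line. Bub1b changed at 12 h by -0.77 ± 0.19 in NC (adjusted p = 0.00801) and -1.39 ± 0.19 in KD (adjusted p = 1.59e-05).

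Bub1 is the kinase that marks centromeres and recruits checkpoint proteins to kinetochores. For Bub1 the 3 NC libraries held 118, 157 and 114 CPM in control, 54.7, 88.4 and 80.3 after 12 h and 135, 184 and 176 after 24 h. The KD libraries held 136, 190.0 and 167 CPM in control, 55.1, 70.2 and 55.1 after 12 h and 157, 185 and 171 after 24 h. No 12 h library overlapped a control or 24 h library of its line. Bub1 changed at 12 h by -0.80 ± 0.19 in NC (adjusted p = 0.00678) and -1.45 ± 0.20 in KD (adjusted p = 1.03e-05) and rose by 1.15 ± 0.19 (adjusted p = 0.00121) and 1.51 ± 0.20 (adjusted p = 3.76e-05).

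Sgo1 encodes shugoshin, which protects cohesin at the centromere. CPM of Sgo1 were 75.1, 94.8 and 77.8 in NC control, 52.2, 52.1 and 63.2 in NC at 12 h and 69.9, 97.2 and 121 in NC at 24 h. In the KD groups they were 73.9, 92.9 and 99.7 in control, 43.2, 36.8 and 45.8 after 12 h and 81.3, 97.1 and 88.6 after 24 h. Its 12 h libraries did not overlap the others of their line. Sgo1 changed at 12 h by -0.57 ± 0.19 in NC (adjusted p = 0.0499) and -1.08 ± 0.19 in KD (adjusted p = 0.000234). Ttk, also known as Mps1, the kinase that starts checkpoint signalling, was low in level but among the genes with the largest NC fall. Levels of Ttk in NC were 8.56, 9.24 and 8.37 CPM in control, 2.25, 3.41 and 2.38 after 12 h and 8.61, 8.29 and 6.63 after 24 h. The KD levels were 4.27, 9.61 and 8.53 CPM in control, 2.38, 2.22 and 1.47 after 12 h and 7.88, 8.79 and 7.15 after 24 h. Its lowest libraries in each line were those at 12 h. Ttk changed at 12 h by -1.68 ± 0.32 in NC (adjusted p = 0.000726) and -1.88 ± 0.33 in KD (adjusted p = 0.000266). Without 1 library the NC 12 h call of Sgo1 was lost in 10 of 18 fits (adjusted p up to 0.18), its adjusted p being at the threshold, and that of Bub1 without NC control library 2 or NC 12 h library 1 (adjusted p up to 0.0577). The NC rises of Bub1b, Sgo1 and Ttk were lost in 3, 4 and 2 fits, each time without an NC 12 h or NC 24 h library (adjusted p up to 0.0939, 0.145 and 0.0655).

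The genes of anaphase and mitotic exit differed in their calls between the lines: 1 of 3 was called lower in NC at 12 h and 3 of 3 in KD, and 0 and 3 rose by 24 h. Cdc20 activates the anaphase-promoting complex. Cdc20 stood at 156, 75.9 and 82.1 CPM in the 3 NC control libraries, then at 101, 56.6 and 66 after 12 h and 144, 74.8 and 138 after 24 h. In KD it stood at 175, 117 and 140.2 in control, then at 68.3, 39 and 37.4 after 12 h and 179, 100.4 and 107 after 24 h. The NC 12 h libraries of Cdc20 overlapped the NC controls, with library 1 the highest in each NC group, while in KD no 12 h library overlapped a control. Cdc20 had a 12 h estimate of -0.49 ± 0.33 in NC (adjusted p = 0.412) and fell in KD with -1.58 ± 0.34 (adjusted p = 0.00266).

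Ube2c is the ubiquitin-conjugating enzyme of that complex, and 22.8% of its exon bases overlap Tnnc2. The NC libraries of Ube2c gave 51.5, 57.4 and 37 CPM in control, 37.4, 40.4 and 32.3 after 12 h and 42.8, 75.5 and 60.8 after 24 h. Those of KD gave 60.2, 81.7 and 64.1 CPM in control, 27.4, 30.5 and 24.4 after 12 h and 73.4, 86 and 57.9 after 24 h. The NC 12 h and control libraries overlapped, and the KD ones did not. Ube2c had a 12 h estimate of -0.41 ± 0.21 in NC (adjusted p = 0.259) and fell in KD with -1.32 ± 0.22 (adjusted p = 0.000118). A call in 1 line and not in the other does not show that the lines differ: the tests of the difference gave -1.09 ± 0.47 for Cdc20 (adjusted p = 0.832) and -0.92 ± 0.30 for Ube2c (adjusted p = 0.518). The library number as a block changed these calls. With it both genes were called lower in NC at 12 h, with -0.46 for Cdc20 (adjusted p = 0.00718) and -0.40 for Ube2c (adjusted p = 0.0298). The difference between the lines was then -1.15 for Cdc20 (adjusted p = 0.000229) and -0.92 for Ube2c (adjusted p = 0.00444). That difference uses the controls of both lines, where same-numbered libraries did not all deviate together (lowest correlation 0.0703). The KD rise of Cdc20 was lost without KD 12 h library 2, KD 12 h library 3 or KD 24 h library 1 (adjusted p up to 0.107).

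Of the 7 genes of the kinetochore and centromere, 6 were lower at 12 h in NC and 7 in KD, and 3 and 7 rose by 24 h. Cenpa (ENSMUSG00000029177; chromosome 5, 30666777 to 30674830, plus strand) encodes the histone H3 variant that marks centromeres. For Cenpa the 3 NC libraries held 205, 172 and 217 CPM in control, 69.6, 59.6 and 68.8 after 12 h and 142, 122 and 143 after 24 h. The KD libraries held 191, 158 and 195 CPM in control, 39.1, 30.5 and 43.5 after 12 h and 121, 96.7 and 121 after 24 h. The 24 h libraries of Cenpa lay between the 12 h and the control libraries in each line, with no overlap. It changed at 12 h by -1.58 ± 0.16 in NC (adjusted p = 4.22e-07) and -2.27 ± 0.17 in KD (adjusted p = 1.98e-09). At 24 h it was still below control, with -0.54 ± 0.16 in NC (adjusted p = 0.038) and -0.69 ± 0.16 in KD (adjusted p = 0.00644). The NC 24 h call was lost without NC control library 1 or 3 or NC 24 h library 2 (adjusted p up to 0.116).

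Cenpf, an outer kinetochore protein made in G2, varied more between NC libraries, with library 3 the lowest in each NC group. CPM of Cenpf were 147, 173 and 111 in NC control, 47.7, 68.4 and 33.5 in NC at 12 h and 157, 176 and 78.4 in NC at 24 h. In the KD groups they were 186, 221 and 199 in control, 48.4, 53.8 and 46.9 after 12 h and 139.8, 116 and 129 after 24 h. The 12 h libraries were still below all others of their line. Cenpf changed at 12 h by -1.53 ± 0.25 in NC (adjusted p = 0.000233) and -2.02 ± 0.26 in KD (adjusted p = 5.8e-06).

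Cenpe encodes the kinetochore motor that aligns chromosomes. Levels of Cenpe in NC were 74.7, 94.5 and 46.6 CPM in control, 24.3, 47.4 and 21 after 12 h and 64.6, 105 and 51.7 after 24 h. The KD levels were 83.7, 128 and 86.3 CPM in control, 32.4, 43.8 and 17.9 after 12 h and 86.7, 85.2 and 64.1 after 24 h. Its NC 12 h and control libraries overlapped. Cenpe changed at 12 h by -1.21 ± 0.36 in NC (adjusted p = 0.0299) and -1.66 ± 0.36 in KD (adjusted p = 0.00277). The NC call of Cenpe was lost without NC control library 1 or 2 or NC 12 h library 1 or 3 (adjusted p up to 0.149), and its KD rise, with an adjusted p of 0.0397, was lost in 8 of the 18 single-library omissions, where its adjusted p reached 0.177.

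Of the 10 mitotic kinesins, 9 fell in NC and 8 in KD at 12 h, and 5 and 8 rose by 24 h. Kif11 (Eg5) pushes the spindle poles apart. Kif11 stood at 189.9, 234 and 200.3 CPM in the 3 NC control libraries, then at 88.5, 105 and 97.1 after 12 h and 195, 199.8 and 236 after 24 h. In KD it stood at 257, 294 and 258 in control, then at 80.1, 83 and 69.1 after 12 h and 219.8, 247 and 194 after 24 h. Its 12 h libraries were below all others of the line. Kif11 changed at 12 h by -1.10 ± 0.15 in NC (adjusted p = 1.64e-05) and -1.80 ± 0.15 in KD (adjusted p = 1.37e-08), and rose by 1.12 ± 0.15 (adjusted p = 0.000124) and 1.51 ± 0.15 (adjusted p = 1.48e-06).

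Kif18b shortens microtubules at their plus ends. The NC libraries of Kif18b gave 98.5, 60.9 and 54.1 CPM in control, 51.8, 33.8 and 43.6 after 12 h and 83.1, 68.5 and 90.2 after 24 h. Those of KD gave 100.1, 73.9 and 74.5 CPM in control, 47.3, 27.2 and 29 after 12 h and 104, 76.4 and 82.7 after 24 h. In each line its 12 h libraries were the lowest, without overlap. Kif18b changed at 12 h by -0.73 ± 0.24 in NC (adjusted p = 0.0498) and -1.27 ± 0.24 in KD (adjusted p = 0.000625). Kif4, a chromosome-bound kinesin, shares 15.1% of its exon bases with Pdzd11. For Kif4 the 3 NC libraries held 65.7, 57.7 and 58.4 CPM in control, 41, 38.4 and 38.8 after 12 h and 54.5, 77.2 and 75.9 after 24 h. The KD libraries held 88.6, 82.5 and 89.9 CPM in control, 38.5, 31.1 and 25 after 12 h and 77.1, 70.5 and 60 after 24 h. Its KD 24 h libraries were below the KD controls without overlap. Kif4 changed at 12 h by -0.62 ± 0.18 in NC (adjusted p = 0.0205) and -1.46 ± 0.18 in KD (adjusted p = 2.57e-06).

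Kif14, a kinesin of cytokinesis, had the largest NC estimate at 12 h and very low levels, under 5 CPM in every library. CPM of Kif14 were 3.13, 3.96 and 2.86 in NC control, 0.225, 1.08 and 1.19 in NC at 12 h and 1.52, 4.9 and 2.58 in NC at 24 h. In the KD groups they were 2.35, 3.05 and 2.5 in control, 0.648, 1.29 and 1.89 after 12 h and 0.876, 2.3 and 3.34 after 24 h. The NC 12 h libraries were below both other NC groups, and in KD the 12 h and 24 h libraries overlapped. Kif14 changed at 12 h by -1.93 ± 0.58 in NC (adjusted p = 0.0283), and the KD estimate was -1.03 ± 0.56 (adjusted p = 0.242). Calls lost in NC without 1 library were those at 12 h of Kif14 in 3 fits, Kif4 in 2 and Kif18b in 5 (adjusted p up to 0.129, 0.0598 and 0.25), and the rises of Kif18b without any 1 of the 6 NC 12 h and 24 h libraries (adjusted p up to 0.136) and of Kif4 without NC 12 h library 3 or NC 24 h library 2 (adjusted p up to 0.0612). The 12 h fits were those without NC control library 2 or NC 12 h library 1 or 3 for Kif14, NC control library 1 or NC 12 h library 3 for Kif4, and NC control library 1, NC 12 h library 2 or 3, KD control library 1 or KD 12 h library 3 for Kif18b.

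Spindle-associated genes fell in 7 of 8 cases in NC and 8 of 8 in KD, and 6 and 5 rose by 24 h. Hmmr encodes a spindle protein that also binds hyaluronan. Levels of Hmmr in NC were 123, 145 and 141 CPM in control, 70.9, 90.4 and 87.4 after 12 h and 155, 179 and 215 after 24 h. The KD levels were 144, 169 and 132 CPM in control, 87.9, 80 and 75.9 after 12 h and 148, 170.3 and 155 after 24 h. The NC 24 h libraries of Hmmr were all above the NC controls. Hmmr changed at 12 h by -0.72 ± 0.16 in NC (adjusted p = 0.00311) and -0.87 ± 0.16 in KD (adjusted p = 0.000373), and rose by 1.14 ± 0.16 (adjusted p = 0.000158) and 0.96 ± 0.16 (adjusted p = 0.000491).

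Ckap2l encodes a spindle protein known as radmis. Ckap2l stood at 128, 97.5 and 104 CPM in the 3 NC control libraries, then at 80.8, 67.2 and 88 after 12 h and 129.9, 145 and 180.4 after 24 h. In KD it stood at 149, 133 and 129.6 in control, then at 83.6, 59.2 and 62 after 12 h and 163, 148 and 139 after 24 h. Its NC 12 h libraries were below the controls, and those at 24 h were above them. Ckap2l had a 12 h estimate of -0.48 ± 0.17 in NC, which missed the threshold (adjusted p = 0.0736), and fell in KD with -1.01 ± 0.17 (adjusted p = 0.000201).

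Aspm organises spindle poles. The NC libraries of Aspm gave 88.9, 90.2 and 72.9 CPM in control, 25.2, 33.8 and 28.7 after 12 h and 69.9, 83.6 and 68.1 after 24 h. Those of KD gave 91.8, 107 and 97.4 CPM in control, 28.5, 26.1 and 16.8 after 12 h and 62.9, 67 and 66.2 after 24 h. In KD its 24 h libraries lay between those at 12 h and the controls. Aspm changed at 12 h by -1.52 ± 0.18 in NC (adjusted p = 3.84e-06) and -2.05 ± 0.19 in KD (adjusted p = 4.54e-08), and in KD it was still below control at 24 h, with -0.59 ± 0.18 (adjusted p = 0.0337). This 24 h call was lost without any 1 of the 6 KD control and 24 h libraries (adjusted p up to 0.109).

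Of the 3 genes of cytokinesis, 2 fell in NC and 3 in KD at 12 h, and 2 rose in each line by 24 h. Anln encodes anillin, the scaffold of the contractile ring, and varied little between libraries. For Anln the 3 NC libraries held 238, 207 and 225 CPM in control, 123, 127 and 134 after 12 h and 215, 219.7 and 255 after 24 h. The KD libraries held 270.0, 258 and 248 CPM in control, 116, 98.2 and 108 after 12 h and 264, 245 and 234 after 24 h. All 12 h libraries lay under those of control and 24 h. Anln changed at 12 h by -0.80 ± 0.13 in NC (adjusted p = 0.000214) and -1.27 ± 0.14 in KD (adjusted p = 4.46e-07), and rose by 0.84 ± 0.13 (adjusted p = 0.000657) and 1.21 ± 0.14 (adjusted p = 6.66e-06).

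Racgap1 encodes a subunit of centralspindlin, which places the furrow. CPM of Racgap1 were 31.9, 34.1 and 33.7 in NC control, 19.4, 13.7 and 13.7 in NC at 12 h and 35, 30.5 and 28.2 in NC at 24 h. In the KD groups they were 37.1, 32.3 and 41 in control, 15.1, 9.98 and 10.1 after 12 h and 32.4, 20.9 and 35.5 after 24 h. Its 12 h libraries did not overlap the others of their line. Racgap1 changed at 12 h by -1.10 ± 0.22 in NC (adjusted p = 0.00128) and -1.65 ± 0.22 in KD (adjusted p = 1.17e-05). Its NC rise was lost without NC 12 h library 3 (adjusted p = 0.0807).

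Of the 5 tested genes of chromosome structure, the proliferation marker Mki67 among them, 4 fell at 12 h and 4 rose by 24 h in each line, the exception being the condensin subunit Smc4. Mki67 (ENSMUSG00000031004; chromosome 7, 135689784 to 135716361, minus strand) encodes Ki-67, the coat of mitotic chromosomes, and has an annotated copy, Gm44521. Levels of Mki67 in NC were 993, 846 and 528 CPM in control, 317, 414 and 223 after 12 h and 934, 1075 and 586 after 24 h. The KD levels were 1346, 1424 and 1263 CPM in control, 436, 354 and 304 after 12 h and 1078, 818 and 947 after 24 h. The KD controls were all above the NC controls, and library 3 was the lowest in each NC group. Mki67 changed at 12 h by -1.31 ± 0.25 in NC (adjusted p = 0.000733) and -1.88 ± 0.25 in KD (adjusted p = 9.11e-06).

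Top2a (ENSMUSG00000020914; chromosome 11, 98992943 to 99024189, minus strand) encodes the topoisomerase that untangles sister chromatids. Top2a stood at 309, 344 and 301 CPM in the 3 NC control libraries, then at 129, 149 and 159.9 after 12 h and 272, 331 and 368 after 24 h. In KD it stood at 375, 388 and 395 in control, then at 118, 116 and 106 after 12 h and 336, 348 and 266 after 24 h. The 12 h libraries were under every other library of their line. Top2a changed at 12 h by -1.12 ± 0.15 in NC (adjusted p = 1.52e-05) and -1.77 ± 0.15 in KD (adjusted p = 2.05e-08), and rose by 1.15 ± 0.15 (adjusted p = 9.83e-05) and 1.48 ± 0.15 (adjusted p = 2.24e-06).

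Ncapd2 is a subunit of condensin I. The NC libraries of Ncapd2 gave 85.1, 67.8 and 72.5 CPM in control, 34.2, 20.8 and 34.9 after 12 h and 55.5, 45.8 and 58.4 after 24 h. Those of KD gave 78.3, 59.3 and 81.1 CPM in control, 21, 16.5 and 20.8 after 12 h and 60.6, 51.7 and 48.1 after 24 h. In NC its 24 h libraries lay between those at 12 h and the controls. Ncapd2 changed at 12 h by -1.33 ± 0.20 in NC (adjusted p = 6.1e-05) and -1.91 ± 0.21 in KD (adjusted p = 5.27e-07). Its NC rise was lost without NC 12 h library 2 or NC 24 h library 1 or 3 (adjusted p up to 0.0947).

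**Figure D3:**
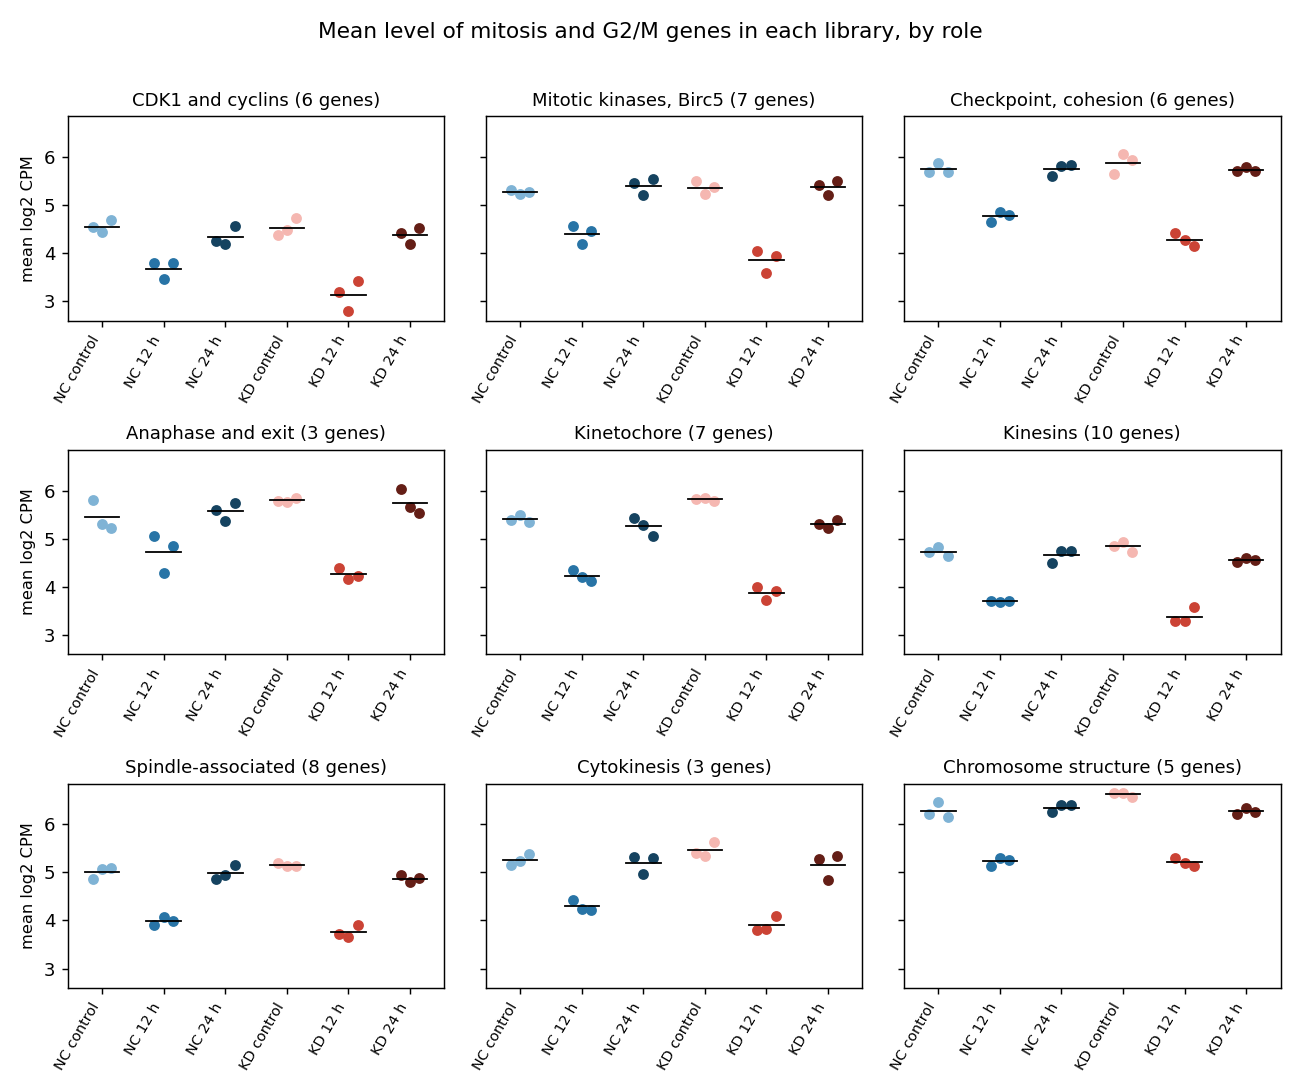
Mean log2 CPM of the tested genes of each role in each library (points) and the group mean (line), by line and time. In every role the 12 h points are the lowest of each line, and the points at 24 h return towards those of the controls.

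Against control, few of the genes differed at 24 h. In NC 2 of the 55 were lower and none higher (2.91% of all genes were lower and 7.57% changed): Cenpa, given above, and Mad2l1, the checkpoint protein that holds Cdc20, with -0.69 ± 0.20 (adjusted p = 0.0341). The median over the 55 was 0.02. For Mad2l1 the 3 NC libraries held 32.3, 42.2 and 42.9 CPM in control, 11.9, 15.5 and 13.9 after 12 h and 25.1, 24.9 and 22.8 after 24 h. The KD libraries held 32.2, 36.1 and 35.8 CPM in control, 11, 7.58 and 11.8 after 12 h and 23.6, 21.3 and 32.9 after 24 h. The NC 24 h libraries of Mad2l1 were all above those at 12 h and below the controls. Mad2l1 has an annotated copy by the same search, Gm42430. In KD 4 were lower and none higher (4.09% and 9.59%): Ccnb2, Cenpa, Aspm and the microtubule-depolymerising kinesin Kif2c, with -0.74 ± 0.20 (adjusted p = 0.0173). The KD median was -0.29, with 43 of the 55 below 0. All 3 KD 24 h libraries lay below all 3 KD controls for 17 of the 55 genes (13.4% of all genes), and the NC 24 h libraries below the NC controls for 6 (10.2%). The 24 h libraries lay above the controls for 1 gene in KD (14%) and 4 in NC (11.2%). The 2 lower calls in NC are a share near that of all genes.

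These 24 h counts rest on single libraries. The NC count was 0 without NC control library 3 or NC 24 h library 2 and 1 without NC control library 1 or 2 or NC 24 h library 1 or 3, and the KD count was 2 without KD control library 2 or KD 24 h library 1 or 3. With the library number as a block, 10 genes were called in NC, 4 higher (Hmmr, Ckap2l, Pbk and Bub1, with 0.42, 0.48, 0.36 and 0.35) and 6 lower. In KD 13 were called, 1 higher (Nek2) and 12 lower. Of all genes 18.9% in NC and 21.5% in KD were called in either direction, and both member counts are near those shares. Shares of all genes by direction are not given for the block, so the lean of the KD calls to lower has no share beside it. Whether the 24 h difference from control differed between the lines was tested by the interaction. EdgeR called 0 of the 55 (0.0313% of all genes), with 3 lower and 0 higher at an unadjusted p under 0.05, and DESeq2 called 0. The median was -0.22.

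Between the lines at 12 h, 4 of the 55 genes passed the test and 51 did not. The 4 were all lower in KD, against 1.1% of all genes called lower and 1.6% called either way: Sgo2a, Cenpa, Ccnb2 and Nek2. The median over the 55 was a log2 fold change of -0.41, with 49 below 0. All 3 KD 12 h libraries lay below all 3 NC 12 h libraries for 17 of the 55 (9.58% of all genes). In control cells edgeR called 0 of the 55 (2.06% of all genes), with 8 higher in KD and 0 lower at an unadjusted p under 0.05, and DESeq2 called 0. The median there was 0.20, with 38 above 0. No share of all genes is given at the unadjusted cutoff, so the 8 cannot be read against all genes. The KD controls lay above all NC controls for 14 of the 55 (7.88% of all genes) and below them for 0 (8.82%). At 24 h edgeR called 0 (1.39% of all genes), with 1 lower and 0 higher at an unadjusted p under 0.05, DESeq2 called 0, and the median was 0.00. There the KD libraries lay below all NC libraries for 5 of the 55 (9.54% of all genes) and above them for 1 (7.68%). The summed CPM of the 10 microglial markers also differed between the lines, with 514 to 563 in the NC controls, 708 to 789 in the KD controls, 500 to 588 in NC at 12 h and 656 to 742 in KD at 12 h, and its part in these results was not tested.

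**Figure D4:**
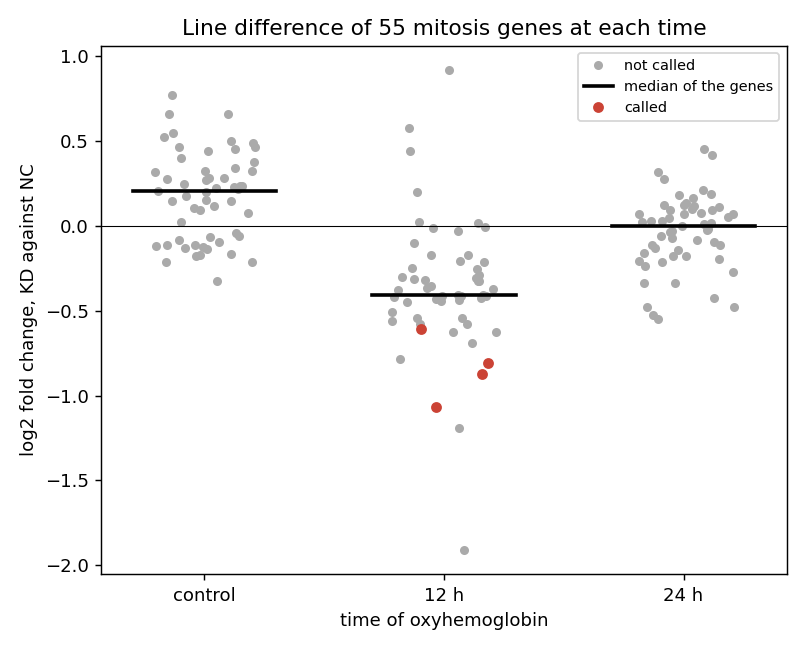
Log2 fold change of KD against NC for each of the 55 tested genes (points, red where called) in control, at 12 h and at 24 h, with the median of the genes as a line. The points lie mostly above 0 in control (38 of 55), mostly below 0 at 12 h (49 of 55) and about 0 at 24 h.

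Sgo2a had the lowest p-value among the members for the line difference at 12 h. It encodes shugoshin 2, which guards cohesin at centromeres and recruits the depolymerising kinesin MCAK there, and lies on chromosome 1, 57995971 to 58025899, plus strand (ENSMUSG00000026039). CPM of Sgo2a were 28, 32.2 and 32.5 in NC control, 19.8, 16.4 and 19.6 in NC at 12 h and 30.9, 37.3 and 40.3 in NC at 24 h. In the KD groups they were 38.2, 50.8 and 46.4 in control, 9.72, 9.43 and 7.36 after 12 h and 36.8, 34.3 and 33.1 after 24 h. The KD 12 h libraries lay below every NC 12 h library, whereas the KD controls lay above every NC control. At 12 h KD was lower than NC, with a log2 fold change of -1.07 ± 0.19 (adjusted p = 0.00507). Within the lines Sgo2a changed at 12 h by -0.73 ± 0.18 in NC (adjusted p = 0.0078) and -2.35 ± 0.19 in KD (adjusted p = 7.38e-09). The difference between those changes was -1.62 ± 0.26 (adjusted p = 0.0115). Of its exon bases, 35% overlap Kctd18, and the sources used here do not say whether counting used strand. Kctd18, looked at for this reason after the values were seen, had a 12 h difference between lines of -0.01 ± 0.27 (adjusted p = 0.993) and an interaction of -0.07 ± 0.38 (adjusted p = 0.999).

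By edgeR without a block, Sgo2a was also the only member, and 1 of 12 genes in all (0.075%, 0.0125% lower), that passed the interaction test at 12 h. With the library number as a block 13 members passed it, all lower, where 1.28% of all genes were called lower: Sgo2a, Ube2c, Spc25, Cdc20, Kif11, Cdk1, Top2a, Bub1, Cenpa, Ccnb2, Kif4, Anln and Bub1b. The block is uncertain here, because same-numbered controls of the lines did not all deviate together (lowest correlation 0.0703). Over the 55 the interaction had a median of -0.57, where the median of all genes was -0.01, and 51 estimates below 0. That is, the estimated fall was larger in KD in 51 of the 55. At an unadjusted p under 0.05, 22 were lower and 0 higher. No share of all genes is given at that cutoff, so the 22 cannot be read against all genes. The call for Sgo2a was lost without NC 12 h library 1 (adjusted p = 0.0579), in a fit of only the 4 groups concerned (adjusted p = 0.0676) and on the TPM scale (adjusted p = 0.253 to 0.365). The control libraries enter this test, and both the higher KD controls and the lower KD 12 h libraries add to it.

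**Figure D5:**
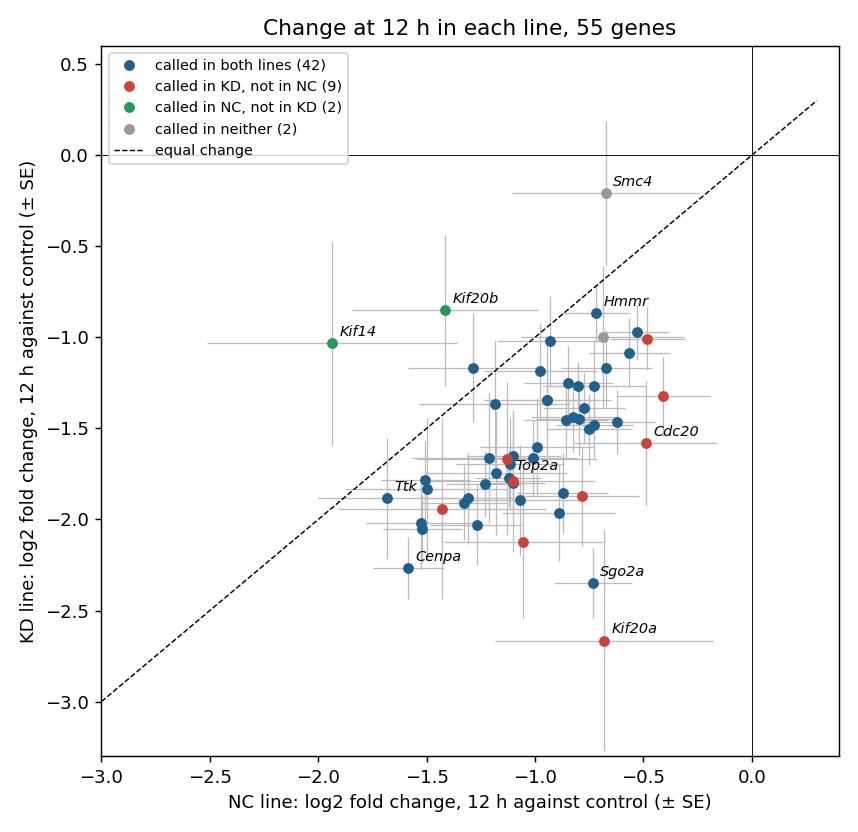
Log2 fold change at 12 h against control of each of the 55 tested genes, NC on the x axis and KD on the y axis, with bars for the SE and a dashed line of equal change. Of the points, 51 lie on the side of a larger fall in KD.

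Cenpa, Ccnb2 and Nek2 were lower in KD at 12 h, with log2 fold changes of -0.81 ± 0.17 (adjusted p = 0.0121), -0.87 ± 0.20 (adjusted p = 0.0213) and -0.61 ± 0.15 (adjusted p = 0.0446). Averaged over the 3 times, 2 of the 55 were lower in KD and 0 higher (5.98% of all genes lower, 9.99% called): Ccnb2 with -0.51 ± 0.11 (adjusted p = 0.00411) and Cenpa with -0.40 ± 0.09 (adjusted p = 0.00719). These 2 calls are a share no higher than that of all genes. The 12 h calls of Cenpa and Ccnb2 were lost without NC 12 h library 1, NC 12 h library 3 or KD 12 h library 2 (adjusted p up to 0.108 and 0.148), that of Ccnb2 also without KD 12 h library 3, and that of Nek2 in 15 of the 18 fits (adjusted p up to 0.21). Without NC 12 h library 1, NC 12 h library 3 or KD 12 h library 2 the count was 1. In a fit of only these groups it was 0, as it was with limma on the TPM scales. With the library number as a block it was 17, all lower, where 6.44% of all genes were called lower, among them Cdk1, Plk1, Cdc20, Top2a and Kif11.

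Genes that regulate the cell cycle, those of G1 among them, were called in both directions. Of 38 tested regulators, 8 fell and 1 rose at 12 h in NC (median -0.24), where 5.55% of all genes were called lower and 12.2% either way. In KD 12 fell and 3 rose (median -0.38; 8.06% and 16% of all genes), and by 24 h 3 and 8 had risen from 12 h (1.63% and 2.81%). Foxm1, the factor that drives late-cycle genes, stood at 115, 75.2 and 88.4 CPM in the NC controls and 59.4, 43.1 and 59.1 at 12 h, and at 123, 94.1 and 105 and 38.2, 23.7 and 39.9 in KD, with no overlap within a line. It changed at 12 h by -0.78 ± 0.20 in NC (adjusted p = 0.0109) and -1.67 ± 0.21 in KD (adjusted p = 3.72e-06). Mybl2, which encodes B-Myb, changed by -0.77 ± 0.22 (adjusted p = 0.0203) and -1.65 ± 0.22 (adjusted p = 9.25e-06). Cdkn1a, which encodes the Cdk inhibitor p21, was too low to read, at 0.594 to 7.3 CPM over the 18 libraries, with estimates of -0.57 ± 0.50 (adjusted p = 0.561) and 0.71 ± 0.58 (adjusted p = 0.486).

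The lowest p-values among the regulators in NC belonged to Tfdp2, a partner of E2F factors, which changed at 12 h by -2.36 ± 0.17 (adjusted p = 1.1e-09), Wee1, the kinase that restrains Cdk1, with -0.93 ± 0.17 (adjusted p = 0.000385), and Fbxo5 (Emi1), which restrains the anaphase-promoting complex, with -0.88 ± 0.19 (adjusted p = 0.00334). Cdk6, a G1 kinase, rose with 0.55 ± 0.13 (adjusted p = 0.0047). Tfdp2 did not reach the control level again: at 24 h it was still below the NC control, with a log2 fold change of -1.32 ± 0.16 (adjusted p = 6.95e-06). From 12 h to 24 h in NC, Rbl1 (the pocket protein p107) rose with 1.03 ± 0.20 (adjusted p = 0.00547), Tfdp2 with 1.04 ± 0.17 (adjusted p = 0.000647) and Fbxo5 with 0.87 ± 0.19 (adjusted p = 0.0138), and the Wee1 estimate was 0.59 ± 0.17 (adjusted p = 0.0593).

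Other genes of mitosis and of DNA replication were read from lists that do not hold the members. Of 62 tested further mitosis genes, 25 fell, 1 rose and 36 were not called at 12 h in NC (median -0.67), where 5.55% of all genes were called lower. In KD 37 fell, 1 rose and 24 were not called (median -1.21; 8.06% of all genes lower). By 24 h 16 rose in NC and 30 in KD (1.63% and 2.81% of all genes). Of the further mitosis genes, the lowest p-values at 12 h in NC were those of Iqgap3 (-1.72 ± 0.24, adjusted p = 1.98e-05), Nsl1 (-1.09 ± 0.16, adjusted p = 6.28e-05), Depdc1b (-1.36 ± 0.21, adjusted p = 8.73e-05) and Zwint, which rose. From 12 h to 24 h the citron kinase Cit rose with 1.33 ± 0.21 (adjusted p = 0.000545), Depdc1b with 1.22 ± 0.21 (adjusted p = 0.00156), the centromere protein Cenph with 1.37 ± 0.24 (adjusted p = 0.0016) and the kinetochore subunit Nsl1 with 0.84 ± 0.16 (adjusted p = 0.00451). Of 46 replication genes, 12 fell and 34 were not called in NC (median -0.49), 26 fell and 20 were not called in KD (median -0.89), and 12 and 16 rose by 24 h, beside the same shares of all genes. The catalytic subunit Pole changed at 12 h in NC by -0.96 ± 0.17 (adjusted p = 0.00045), the checkpoint mediator Clspn by -0.79 ± 0.17 (adjusted p = 0.00317), Dtl, which targets Cdt1 for destruction, by -0.89 ± 0.21 (adjusted p = 0.00503), and the replication initiation factor Mcm10 by -0.70 ± 0.18 (adjusted p = 0.0097). From 12 h to 24 h these 4 rose with 1.01 ± 0.17, 1.25 ± 0.17, 1.02 ± 0.21 and 1.15 ± 0.18 (adjusted p = 0.00125, 0.000158, 0.00617 and 0.000442).

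The 15 subunits and partners of the anaphase-promoting complex, which work through much of the cycle, had 0 calls in NC at 12 h by edgeR and 3 lower in KD, with medians of -0.17 and -0.28. Of all genes 5.55% were called lower in NC and 8.06% in KD, so that 0 of 15 is near the NC share. At an unadjusted p under 0.05, 0 of the 15 were lower and 0 higher in NC, and DESeq2 called 0 lower and 0 higher. The NC estimates of lowest p at 12 h were -0.54 ± 0.27 for Anapc7, -0.39 ± 0.23 for Anapc5, 0.39 ± 0.29 for Anapc4 and -0.25 ± 0.20 for Anapc16, with adjusted p of 0.236, 0.312, 0.467 and 0.506. From 12 h to 24 h they were 0.42 ± 0.18 for Ube2s, -0.38 ± 0.20 for Anapc2, -0.37 ± 0.21 for Anapc16 and 0.39 ± 0.22 for Cdc27, with adjusted p of 0.303, 0.439, 0.465 and 0.479.

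By length-scaled level (TPM, mean of the 18 libraries), Ccnb2 (133.8) and Mki67 (132.1) were highest, followed by Ckap2l (66.6) and Bub1b (63.1), and the lowest were Smc2 (0.0442), Kif14 (0.144) and Smc4 (0.393). The other condensin subunits were higher, with Ncapd2 at 6.997 and Ncapg at 4.86 TPM. This order is limited by the lengths that the authors used, which exceeded the merged exon length of GENCODE M21 in 54 of the 56 genes, with a median ratio of 1.74. In CPM per kilobase of merged exon the order was Mki67 (76.7), Ccnb2 (74.5), Cdc20 (55.25), Bub1b (42.9) and Plk1 (41.5), with Ckap2l at 36.95. Counts of 8 members are uncertain because over 10% of their exon bases overlap another gene (Sgo2a, Kif20a, Ube2c, Kif4, Ncapg, Cdc25c, Ccna2 and Prc1).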

How the data were processed

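Counts per gene and TPM values were deposited as 2 tables for the 18 libraries. Per the submitters' processing notes, bcl2fastq, HISAT2 2.2.0, featureCounts and DESeq2 were used with the GRCm38 build. The sources used here give neither the role of each tool nor the strand setting. The counts are raw whole numbers per gene as the authors deposited them, and the deposited TPM values are scaled for gene length and depth by the authors.

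Samples were grouped by their labels, and the members and gene lists were chosen with earlier results of these data known. In R 4.3.3, edgeR 4.0.16 (quasi-likelihood test, TMM scaling, a minimum count of 10 by its expression filter, 1 mean per group over all 18 libraries) gave 12 comparisons: 6 between times within lines, 3 between lines at each time, 1 average over times and 2 interactions. P-values were adjusted by Benjamini-Hochberg over all 15996 tested genes, with a threshold of 0.05. Counts at an unadjusted p under 0.05 have no share of all genes beside them. CPM are TMM-scaled. The median biological coefficient of variation was 0.221. The script was tested on simulated data.

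Alternatives were other filters and size factors, DESeq2 1.42.0, limma 3.58.1 on log2(TPM + 1) and log2(TPM + 0.1) with a mean TPM of at least 1, only the groups compared, single libraries left out, and the library number as a block. The labels number the libraries 1 to 3 in each group without saying what a number stands for. Same-numbered libraries deviated together in all pairs (correlation over 0.1) in 7 of 9 comparisons, the lowest being 0.108. The exceptions were the lines in control (lowest 0.0703) and at 24 h (0.0946).

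Named members are, in each role, the 3 (2 in a role of 3) of highest mean CPM, the 4 of largest and the 4 of smallest NC change at 12 h, and those past a test between lines. From the other lists, the 4 of lowest adjusted p in NC at 12 h and from 12 h to 24 h were picked, with Cdkn1a, Foxm1 and Mybl2 always given. Ccnd1, Ccnd2, Ccnd3, Ccne1, Kctd18, Mad2l1, Kif2c, Smc4 and Ncapg are outside this rule and were chosen after their values were seen. Copies of members were searched with minimap2 2.31 against GENCODE M21 transcripts (at least 95% identity over 200 bases).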

Additional observations from a re-analysis of the deposited data

Results flagged for a closer look

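The 12 h change of Sgo2a differed between the lines by a log2 fold change of -1.62 ± 0.26 (adjusted p = 0.0115, edgeR), which is a test of the difference itself. All 3 NC and all 3 KD 12 h libraries were below the controls of their line. Without NC 12 h library 1 the call of the difference was lost (adjusted p = 0.0579), and also without the libraries numbered 2. It was lost too in a fit of only the 4 groups concerned and on the TPM scales. Of the exon bases of Sgo2a, 35% overlap Kctd18.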

How the results depend on the processing

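Of the 12 comparisons, those not named for a setting kept a count of called members within 1.5 times the value in the report. On the log2(TPM + 1) scale, the log2(TPM + 0.1) scale and log2(TPM + 1) with no filter, limma (47, 47 and 56 members tested) called 22, 22 and 19 members in NC at 12 h against control, 8, 11 and 4 in NC from 12 h to 24 h, 28, 28 and 22 in KD from 12 h to 24 h, and 0 in each for KD against NC at 12 h and for the 12 h interaction. It called 2 and 2 in KD at 24 h against control on the last pair of scales, and 1 and 1 for the average over times on the first and the last. With no filter edgeR called 0 in NC at 24 h against control and 1 between the lines in control. In fits of only the groups compared it called 0 in NC at 24 h against control, 0 for KD against NC at 12 h and 0 for the 12 h interaction. Such a fit could not differ for the average over times, which uses all groups. Without the libraries numbered 2 in all groups it called 28 in NC at 12 h, 1 in NC at 24 h against control, 20 in NC from 12 h to 24 h, 2 in KD at 24 h against control, 2 for KD against NC at 12 h and 0 for the 12 h interaction. With the library number as a replicate block it called 10 and 13 at 24 h against control in NC and KD, 47 in NC from 12 h to 24 h, 17 for KD against NC at 12 h, 10 (all higher in KD) in control, 1 at 24 h, 8 for the average (2 higher, 6 lower) and 13 (all lower) for the 12 h interaction; no count of the other comparisons moved by over 1.5 times. The cause of these changes was not tested. No share of all genes is given beside the blocked counts between lines in control, at 24 h and averaged. Those counts therefore cannot be read as results about the members. Same-numbered libraries also did not all deviate together for the lines in control and at 24 h.

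Leaving out 1 library at a time gave 33 to 47 members in NC at 12 h, 0 to 2 in NC at 24 h against control, 20 to 32 in NC from 12 h to 24 h, 49 to 52, 2 to 5 and 38 to 47 in the same KD comparisons, 0 to 1 between lines in control, 1 to 4 at 12 h, 0 at 24 h, 2 to 3 for the average, 0 to 1 for the 12 h interaction and 0 for the 24 h interaction. The NC estimate of Cdkn1a from 12 h to 24 h, 0.07, turned to -0.43 on leaving out NC 12 h library 3 and to -0.06 on leaving out NC 24 h library 2, and reached 0.51 at most. Depth limits members of low level, such as Kif14, Smc4 and Smc2.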

Other observations

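Zwint, a kinetochore protein that anchors the RZZ complex, was the 1 gene of the further mitosis list that edgeR called higher at 12 h in NC, where DESeq2 called 2, and it rose in KD too. It stood at 95.6, 93.7 and 103 CPM in the NC controls, 217, 198 and 240.0 after 12 h and 148, 138 and 205 after 24 h. In KD the levels were 116, 111 and 132 CPM in control, 253, 212 and 237 after 12 h and 234, 199 and 266 after 24 h. No 12 h or 24 h library overlapped a control of its line. The change at 12 h was a log2 fold change of 1.16 ± 0.16 in NC (adjusted p = 2.9e-05) and 0.97 ± 0.16 in KD (adjusted p = 0.000157).

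Among the G1 cyclins, Ccnd1 and Ccne1 were called higher than control at 24 h in both lines. Ccnd2 was called higher in KD only (0.63, adjusted p = 0.0149, and 0.07 in NC, adjusted p = 0.874). Ccnd3 was called in neither line (-0.075 in NC and -0.03 in KD, adjusted p = 0.929 and 0.974). Of the 38 tested regulators, 5 were higher and 1 lower at 24 h in NC, and 6 and 3 in KD. Of all genes, 7.57% and 9.59% were called either way. Ccnd1 changed by 0.89 ± 0.22 in NC (adjusted p = 0.0107) and 1.38 ± 0.22 in KD (adjusted p = 0.000126). Ccne1 changed by 0.96 ± 0.18 in NC (adjusted p = 0.00124) and 0.96 ± 0.18 in KD (adjusted p = 0.000842).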
